A study of Ovis aries with 95 samples.

Results

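ABCB1, ABCG2 and OCLN, the genes of the efflux pumps P-glycoprotein and breast cancer resistance protein and of the tight junction protein occludin, were followed in 4 regions of the sheep brain through the last months of gestation and birth. The members were the probes whose gene was given as ABCB1, ABCG2 or OCLN, and there were 4 of them, for 3 genes, among 15008 probes for 14343 genes or accessions. Each of the 95 samples was labelled RNA of 1 brain region of 1 animal on a 1-colour array of 60-base probes. The regions were cortex, brainstem, hippocampus and hypothalamus. Fetuses were at 80, 100, 120, 130 or 145 d of gestation, and newborn lambs were 1 d old. The study's methods give the 100 d and 145 d groups as ranges of days, the latter ending before the average term. Below, a change at birth or birth step is the change from 145 d to 1 d after birth. It includes the last days of gestation, so that a change before delivery cannot be told from one after it. There were 4 animals per region and age, except hippocampus at 100 d with 3. The labels give no treatment, breed or sex. The study's methods place a set of twins in each age group, which the labels do not mark, so that the animals of a group were not all independent. By the same methods the 4 regions were dissected from the same animals, which the labels do not tie to arrays, so that arrays of different regions can share an animal.

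The capillaries of the brain are lined by endothelial cells that are sealed to each other by tight junctions and that return many lipid-soluble compounds to the blood. P-glycoprotein (ABCB1) and breast cancer resistance protein (ABCG2) are ATP-driven pumps of the luminal membrane of these cells and limit the entry of drugs, steroids and toxins. Occludin (OCLN) is a membrane protein of the junction strands, bound inside the cell by the zonula occludens proteins. In whole tissue, a level that differs may come from a different share of cells, barrier endothelium among them, or from more RNA per cell. These cannot be told apart here.

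The 2 ABCB1 probes lie on the sheep ABCB1 transcript at bases 3025 to 3084 and 3045 to 3104 by the array's own start positions, and they are shown because their readings disagree in part although they share most of their bases. The 40 bases common to both are in capitals.
ABCB1 probe 1: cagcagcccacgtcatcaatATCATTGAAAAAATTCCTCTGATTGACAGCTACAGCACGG
ABCB1 probe 2: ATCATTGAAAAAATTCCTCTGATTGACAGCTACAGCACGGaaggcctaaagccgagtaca
The probes therefore read almost the same stretch of RNA from different places on the array, at row 18 and row 160, and are not independent measurements. ABCG2 had 1 probe, in row 3 near the edge of the array, matched to the gene by its transcript accession. OCLN had 1 probe, which the array's annotation names OCLN for an expressed sequence tag, so that its identity rests on that name.

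Values are log2 intensities after background correction and quantile normalization, and since each probe has its own brightness they order samples and not genes. Between 59.5% and 88.5% of gene spots were well above background on each array. No slide held arrays of more than 1 region, so that region and slide cannot be told apart. Of 8 named hypothalamus markers of 13, AGRP, GHRH, OXT, POMC and PMCH were highest in the labelled hypothalamus: the means over the 6 ages were 8.39 for AGRP, 8.19 for GHRH and 10.88 for OXT there, against at most 6.61, 6.59 and 8.67 in the other regions. GNRH1 was kept after the filter in hypothalamus alone. NPY, at 11.2 in hypothalamus, was higher in cortex (12.54) and hippocampus (12.55), and SST was lowest in hypothalamus (13.2, against 13.37 to 14.61). Of 3 named brainstem markers GATA3 (9.61) and SLC6A4 (7.07) were highest in brainstem, SLC6A2 was not (6.86, against 6.96 in hypothalamus), and TTR, a choroid plexus gene, was also highest there (16.91). No cortex or hippocampus marker of the lists was named on the array. The spots around a member were also read on each array as a local level, the median over the surrounding spots of each spot's departure from its own regional median, because the surroundings of the ABCG2 probe were dim on some hippocampus and hypothalamus arrays and those of all members were bright on newborn brainstem replicate 4, an array with a dim area elsewhere that held no member's spot.

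ABCB1 rose in cortex from 80 to 145 d and again between 145 d and 1 d after birth. The 4 arrays at 80 d read 7.99, 7.94, 7.64 and 7.61, those at 145 d read 8.81, 8.53, 8.23 and 8.51, and the newborn arrays read 9.28, 9.04, 9.56 and 9.62. Every array at 145 d lay above every array at 80 d, and every newborn array above every array at 145 d. The latter separation was found for 1.52% of genes in cortex, and the former was not counted over all genes. Group means between these ages were 7.93 ± 0.11 at 100 d, 8.03 ± 0.17 at 120 d and 8.33 ± 0.22 at 130 d (SD, n = 4 each), each higher than the last.

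The age effect on cortical ABCB1 passed the F test of limma over the 6 ages with an adjusted p of 6.15e-08, where 46.3% of 12713 genes passed. From 80 to 145 d the level rose by 0.73 on the log2 scale (SE 0.14, 1.65-fold, adjusted p = 0.000256; 41.9% of genes changed and 19.3% rose). From 145 d to 1 d after birth it rose by a further 0.85 (SE 0.14, 1.81-fold, adjusted p = 0.0113). Of all cortical genes, 0.165% rose at that step and 0.252% changed in either direction, with a median change of -0.02. The count behind that share was unstable, at 32 genes on all arrays and 2 to 176 with an array left out. Over the whole period the rise was 1.58 (SE 0.14), or 2.99-fold (adjusted p = 9.9e-09; 45.3% of genes changed and 20.3% rose). None of the 4 steps between neighbouring fetal ages passed alone, the largest being 0.31 from 120 to 130 d (adjusted p = 0.286). In order of age, 5.98%, 6.58%, 1.25% and 0.173% of cortical genes passed at these steps. The birth step was above 0 on each of the 3 slides, from 0.47 to 1.22, and with newborn replicate 3 left out it was 0.79 with an adjusted p of 0.06.

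In brainstem ABCB1 rose between 145 d and 1 d after birth, without a detected rise before 145 d. The 145 d arrays read 8.01, 7.88, 7.66 and 7.56 and the newborn arrays 8.12, 8.39, 8.73 and 9.20. All newborn arrays were above all 145 d arrays, as for 5.53% of genes in this region, although the lowest newborn value was only slightly above the highest fetal value at that age. The birth step was 0.83 (SE 0.17, 1.78-fold, adjusted p = 0.00857), and 4.98% of brainstem genes changed and 3.72% rose at it. The change from 80 to 145 d was 0.12, with a 95% interval from -0.23 to 0.47 (adjusted p = 0.605). The fetal group means stayed between 7.47 ± 0.15 at 100 d and 7.85 ± 0.12 at 130 d.

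The highest newborn brainstem array was replicate 4, on which the spots around the ABCB1 probes read 0.34 and 0.36 above their regional medians. With the spots of uneven surroundings left out, the birth step in brainstem was 0.63 (adjusted p = 0.014), and with the local level subtracted it was 0.77 (adjusted p = 0.00352). It was above 0 within each of the 3 slides, from 0.18 to 1.40. The age F test passed with an adjusted p of 0.00022, beside 41.3% of brainstem genes, and the rise over the whole period was 0.95 (SE 0.17, 1.94-fold, adjusted p = 0.00012; 43.4% of genes changed and 21.6% rose).

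In hypothalamus ABCB1 rose over the whole period, by 1.02 (SE 0.20, 2.03-fold, adjusted p = 0.00103; 17.6% of genes changed and 8.38% rose), and the age F test passed (adjusted p = 0.0062; 15.6% of genes). The 80 d arrays read 7.34, 7.69, 7.49 and 7.82, the 145 d arrays 8.08, 8.24, 7.90 and 8.08, and the newborn arrays 8.17, 8.67, 8.71 and 8.89. The 145 d arrays all lay above the 80 d arrays, and the lowest newborn array lay within the 145 d range. Newborn arrays all above 145 d arrays were found for 7.43% of genes here, and the separation of 145 d from 80 d was not counted over all genes. The change from 80 to 145 d (0.49, adjusted p = 0.121) and the birth step (0.54, adjusted p = 0.136) each missed the threshold, which 13.6% and 2.4% of genes passed, 5.47% and 1.52% with a rise. Both passed when replicate 2 at 130 d, the lowest array of the region at 7.04, was left out (adjusted p = 0.0264 and 0.0489), a fit in which the estimates were again 0.49 and 0.54.

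The ABCB1 probes gave different sizes in hypothalamus. Probe 1 read 9.16, 9.06, 8.95 and 9.20 on the newborn arrays and probe 2 read 7.18, 8.27, 8.47 and 8.59, so that they parted on replicate 1. On its own, probe 1 rose by 0.80 at birth (SE 0.19, adjusted p = 0.0354) and by 1.47 over the whole period, and probe 2 changed by 0.27 (SE 0.29, adjusted p = 0.658) and 0.58 (adjusted p = 0.188). The probes ran together over the 24 arrays of cortex (r = 0.979) and of brainstem (r = 0.913), less so over those of hypothalamus (r = 0.557), and barely over the 23 of hippocampus (r = 0.187). These are descriptions over arrays that share ages. Probe 2 was the dimmer probe and was not well above background on 7 hippocampus arrays and 1 hypothalamus array.

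**Figure D1:**
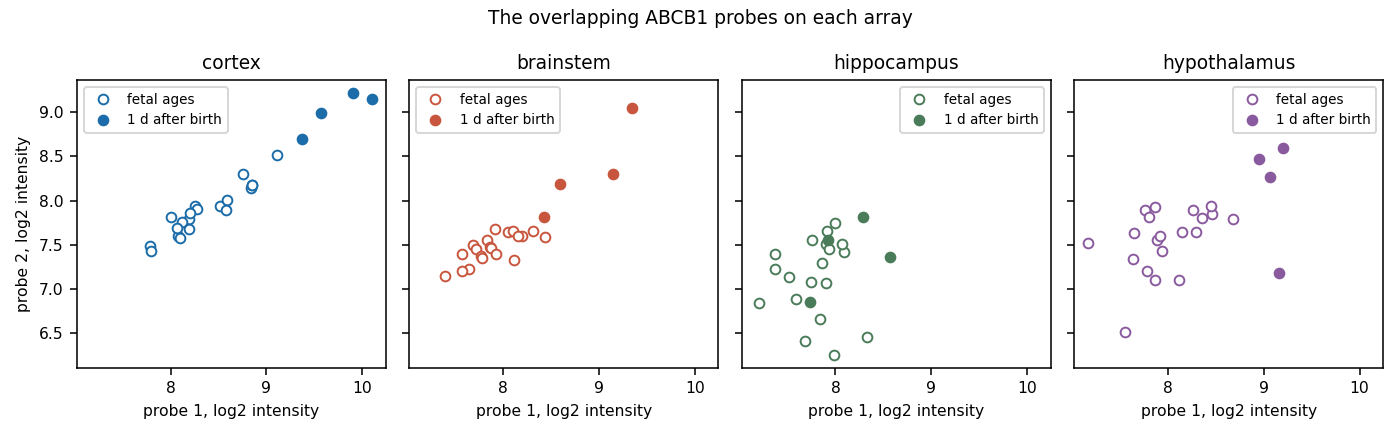
Each point is 1 array, with the log2 intensity of ABCB1 probe 1 on the horizontal axis and of probe 2 on the vertical axis; filled points are newborn lambs. In cortex (r = 0.979) and brainstem (r = 0.913) the points lie along a line with the newborn arrays toward its upper end, and in hypothalamus 1 newborn array lies low on probe 2 (7.18).

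In hippocampus no ABCB1 change passed any test. The group means ran from 7.27 ± 0.34 at 100 d (n = 3) to 7.76 ± 0.34 in newborn lambs (n = 4), whose arrays read 7.74, 7.97, 7.29 and 8.06 and overlapped those at every fetal age. The birth step was 0.17 with a 95% interval from -0.27 to 0.61, and the whole change 0.31 with an interval from -0.13 to 0.75. The upper bounds lie below the cortical estimates of 0.85 and 1.58. The cortical intervals were 0.56 to 1.15 and 1.28 to 1.87, and the former overlaps that of hippocampus. Probe 1 alone changed in hippocampus by 0.29 at birth and 0.42 over the whole period. Few genes passed in this region, 3% by age and 1 of 12949 at birth (0.00772%). Leaving out 1 array gave 1 to 23 genes at birth, the 23 without newborn replicate 3, and 442 to 856 genes over the whole period against 711 on all arrays, the 442 without 80 d replicate 3. For 0.633% of genes the newborn arrays lay above all 145 d arrays. From 80 to 145 d 4.36% changed and 2.09% rose, and over the whole period 5.49% and 2.35%.

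Whether the ABCB1 course differed between regions was tested in a fit over all arrays, which takes arrays of different regions as independent. The region-by-age test gave an adjusted p of 0.12 (8.31% of 12287 genes passed), and the test of the birth step across regions 0.624 (0.0814% passed). A difference between the birth steps of cortex and hippocampus was therefore not shown. The region-by-age result crossed the threshold in 3 of 12 other settings, over which its adjusted p ran from 0.0168 to 0.77. It was 0.0283 with spots of uneven surroundings left out and 0.0168 with the local level subtracted, both chosen after seeing the data. On the authors' normalized values it was 0.031. Of 95 fits with an array left out, 1 crossed, without the hypothalamus array of 130 d replicate 2 (0.0366).

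ABCB1 differed in level among the regions, averaged over the 6 ages (adjusted p = 3.07e-14), as did 85.8% of genes. With arrays of the same age and replicate number as a random block, which stands for the shared animals only if those numbers mark the same animal, ABCB1 gave 9.02e-15 in this test, 0.0819 in the region-by-age test and 0.525 in the test of the birth step across regions, so that no call changed. Cortex was 0.49 above brainstem, 0.42 above hypothalamus and 0.82 above hippocampus (SE 0.08 each), with adjusted p-values of 4.45e-08, 2.9e-06 and 7.08e-15; these region differences passed for 54.6%, 49.5% and 54.5% of genes. Brainstem and hypothalamus differed by -0.08 (SE 0.08, adjusted p = 0.423). Hippocampus was 0.33 below brainstem and 0.41 below hypothalamus, with adjusted p-values of 0.000219 and 1.2e-05 and 48.8% and 48.3% of genes passing.

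Ordered over the 24 groups, ABCB1 was highest in newborn cortex (9.37 ± 0.27), then in newborn brainstem (8.61 ± 0.46) and newborn hypothalamus (8.61 ± 0.31), and then in cortex at 145 d (8.52 ± 0.23) and 130 d (8.33 ± 0.22). The lowest 5 places included hippocampus at 120, 80, 130 and 100 d. Of the 23 neighbouring pairs in this order, 2 were separated by more than their pooled SD: newborn cortex from newborn brainstem, and cortex at 130 d from hypothalamus at 145 d (8.07 ± 0.14). All other neighbours lay within their spread.

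**Figure D2:**
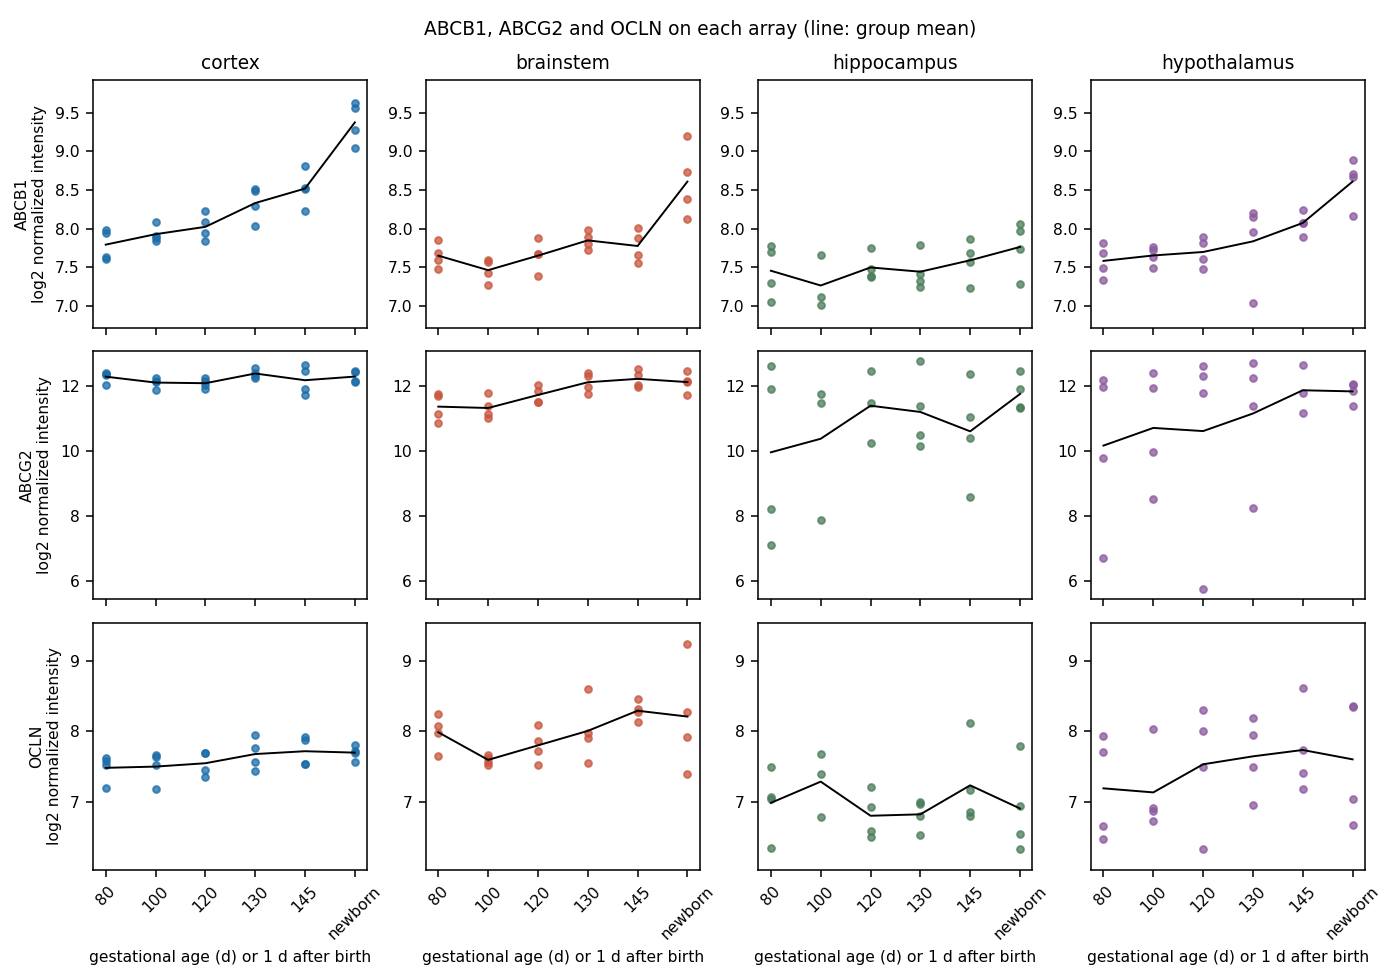
Each point is 1 array and each line joins the group means; columns are regions, rows are genes and the vertical axis is log2 normalized intensity on a scale shared within a row, with gestational age in d or newborn on the horizontal axis. ABCB1 climbs to 9.37 in newborn cortex and 8.61 in newborn brainstem and hypothalamus, ABCG2 is flat near 12 in cortex but scattered down to 5.74 in hypothalamus, and OCLN shows no separation of the ages.

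ABCG2 was stable in cortex. Its arrays there spanned 11.74 to 12.65 with a median of 12.26, and the group means lay between 12.10 ± 0.14 at 120 d and 12.40 ± 0.13 at 130 d. The age F test had an adjusted p of 0.465. The change from 80 to 145 d was -0.11 (95% interval -0.43 to 0.22) and the birth step 0.11 (-0.21 to 0.43), so that a birth step the size of that of ABCB1 lay outside the interval. The reading was not limited by saturation, which was marked on none of the 95 arrays.

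In brainstem ABCG2 rose during gestation and not at birth. At 80 d the arrays read 11.16, 11.70, 11.76 and 10.88 and at 145 d 12.35, 12.55, 11.98 and 12.05, without overlap. How many genes separated in this way was not counted. The rise was 0.86 (SE 0.22, 1.82-fold, 95% interval 0.41 to 1.32, adjusted p = 0.00355), beside 38.1% of brainstem genes that changed and 16.7% that rose. The group means were 11.37 ± 0.43, 11.33 ± 0.34, 11.74 ± 0.26, 12.13 ± 0.30 and 12.23 ± 0.27 from 80 to 145 d, and no step between neighbouring ages passed, as 11.7%, 3.29%, 0% and 1.26% of brainstem genes did in order of age. Newborn arrays read 12.49, 11.72, 12.18 and 12.14 and overlapped those at 145 d, with a birth step of -0.10 (SE 0.22, adjusted p = 0.825). The age F test passed with an adjusted p of 0.00332. The fetal rise was above 0 within each of the 3 slides, from 0.23 to 1.17.

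In brainstem, then, ABCG2 rose before 145 d and ABCB1 after it; the courses of the genes were not tested against each other. In the same region SLC16A1, the lactate carrier of the barrier, rose by 2.43 from 80 to 145 d (adjusted p = 1.1e-08) and fell by 0.81 at birth (adjusted p = 0.0234).

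In hippocampus and hypothalamus ABCG2 readings scattered widely within groups, and no age test passed (adjusted p = 1 and 0.918). Hippocampus arrays ran from 7.09 to 12.78 and hypothalamus arrays from 5.74 to 12.73, with SDs within groups of 1.71 and 2.05 against 0.23 in cortex and 0.32 in brainstem. At 80 d in hypothalamus the arrays read 6.71, 12.20, 11.98 and 9.80, and at 120 d 5.74, 12.64, 11.79 and 12.31. The change from 80 to 145 d was 1.70 with an interval from -1.46 to 4.87 in hypothalamus and 0.65 with an interval from -1.74 to 3.04 in hippocampus. In each region 1 spot was marked as an outlier by the scanner software and left out, at 145 d in hypothalamus and at 120 d in hippocampus.

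The low ABCG2 readings were on arrays whose spots around the probe were also dim. The local level was more than 0.3 below the regional median on 4 hippocampus and 7 hypothalamus arrays, where ABCG2 read 7.09 to 8.59 and 5.74 to 11.18. On the other arrays no reading was below 10.16 in hippocampus or 11.40 in hypothalamus. Over arrays the reading and the local level ran together with r = 0.827 in hippocampus (22 arrays) and 0.917 in hypothalamus (23 arrays), values that describe single spots and their neighbours on the same arrays. Cortex arrays had local levels between -0.14 and 0.11.

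With spots of uneven surroundings left out, ABCG2 averaged 12.07 ± 0.41 over 15 hypothalamus arrays and 11.56 ± 0.85 over 17 hippocampus arrays, against 12.23 ± 0.23 over 24 in cortex. The change from 80 to 145 d in hypothalamus was then 0.14 (SE 0.43, adjusted p = 0.901) and in hippocampus -0.99 (SE 0.78, adjusted p = 0.591), with 1 array left at 100 d in hypothalamus. The region differences changed as well. Cortex was above hypothalamus by 1.17 (SE 0.39, adjusted p = 0.00914) on all spots and by 0.15 (SE 0.17, adjusted p = 0.487) on the even ones, and above hippocampus by 1.34 (adjusted p = 0.0028) and 0.61 (adjusted p = 0.00108). Cortex and brainstem differed by 0.41 in both, with an adjusted p of 0.372 on all spots and of 0.0133 on the even ones. Hippocampus and hypothalamus differed by -0.18 (adjusted p = 0.734) on all spots and by -0.46 (adjusted p = 0.0363) on the even ones. Brainstem exceeded hippocampus by 0.93 (adjusted p = 0.0416) on all spots and by 0.20 (adjusted p = 0.314) on the even ones.

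**Figure D3:**
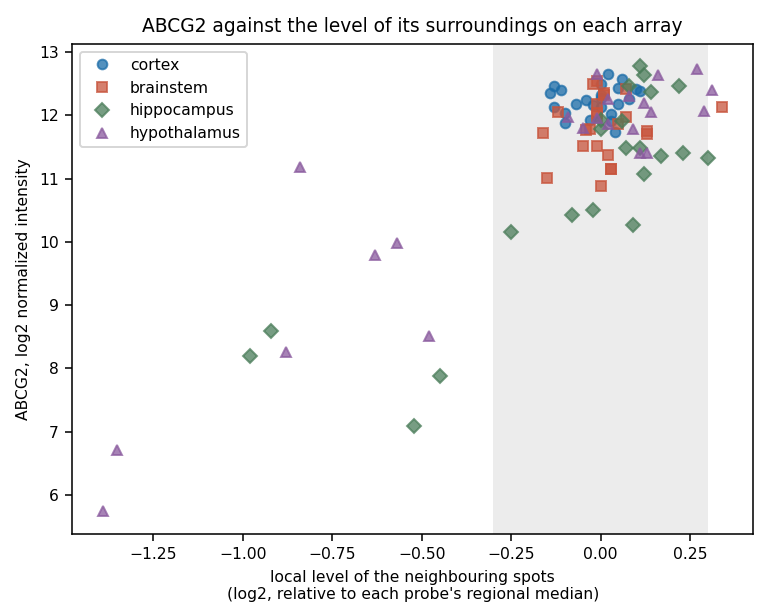
Each point is 1 array: the log2 intensity of the ABCG2 probe against the local level of the spots around it, with the band within 0.3 of the regional median shaded. The 4 hippocampus and 7 hypothalamus arrays left of the band hold every ABCG2 reading below 10, and all cortex arrays lie inside the band.

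OCLN passed no age test in any region, with adjusted p-values of the F test of 0.421 for cortex, 0.228 for brainstem, 1 for hippocampus and 0.887 for hypothalamus. No step between neighbouring fetal ages passed for any member in hippocampus, where 0.0463%, 0.0154%, 0% and 0% of genes did, or in hypothalamus, where 0.122%, 1.13%, 0% and 0% did. In cortex its arrays lay between 7.18 and 7.95, and the group means between 7.48 ± 0.19 at 80 d and 7.72 ± 0.21 at 145 d. The change from 80 to 145 d was 0.23 (95% interval -0.04 to 0.51, adjusted p = 0.17) and the birth step -0.02 (-0.29 to 0.26). Within each of the 3 cortex slides OCLN was higher at 145 d than at 80 d, by 0.30 to 0.34, and with the slide in the fit the change was 0.31 (SE 0.09, adjusted p = 0.00849) and the age F test passed (adjusted p = 0.0222). On the processed signal of the scanner software, scaled by its 75th percentile, the change was 0.75 (adjusted p = 0.0383). The call of a fetal rise of OCLN in cortex therefore depends on these settings.

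In brainstem OCLN spread most at birth, when the arrays read 7.40, 7.92, 8.28 and 9.24 around a 145 d group at 8.27, 8.31, 8.13 and 8.46. The newborn range held the whole 145 d range, and the array at 9.24 was replicate 4, with a local level of 0.62 around the probe. The birth step was -0.08 (95% interval -0.63 to 0.47), and -0.43 (adjusted p = 0.237) with the uneven spots left out. Without newborn replicate 1, the lowest, the age F test of brainstem had an adjusted p of 0.0421, against 0.228 on all arrays.

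The OCLN probe was not well above background on 8 of the 23 hippocampus arrays and 2 of the 24 hypothalamus arrays, although every group had arrays on which it was. Readings spanned 6.34 to 8.12 in hippocampus, and in hypothalamus 6.34 to 8.62, where the SD within groups was 0.72 against 0.19 in cortex. The birth steps were -0.33 in hippocampus (interval -1.02 to 0.36) and -0.13 in hypothalamus (-1.14 to 0.88). A rise as large as that of cortical ABCB1 lay within the interval in hypothalamus and outside it in hippocampus. A fall of that size lay within both. Averaged over ages, OCLN was highest in brainstem. It was 0.38 above cortex (adjusted p = 0.0167), 0.51 above hypothalamus (adjusted p = 0.00193) and 0.97 above hippocampus (adjusted p = 1.69e-08). These region differences passed for 54.6%, 46.1% and 48.8% of genes. The choroid plexus gene TTR was also highest in brainstem (16.91, against at most 12.96). Whether choroid plexus in the samples had a part in the OCLN order was not tested. Cortex and hypothalamus differed by 0.13 (SE 0.14, adjusted p = 0.45).

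**Figure D4:**
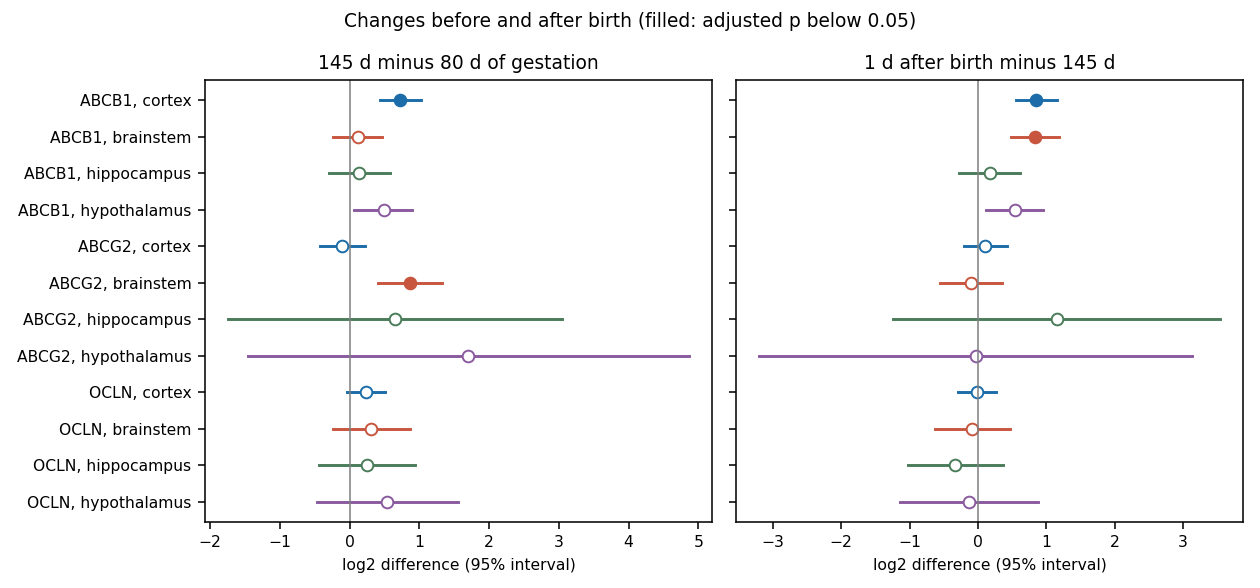
Log2 differences with 95% intervals for each gene and region, from 80 to 145 d of gestation on the left and from 145 d to 1 d after birth on the right; filled points had an adjusted p below 0.05. ABCB1 is filled at birth in cortex (0.85) and brainstem (0.83) and before birth in cortex (0.73), ABCG2 is filled before birth in brainstem (0.86), and no OCLN interval excludes 0.

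Among the other barrier transporters, 33 genes were listed and 8 had a named probe, the pumps included. By age, 4 of the 8 passed in cortex (46.3% of all genes), 5 in brainstem (41.3%), none in hippocampus (3%) and 2 in hypothalamus (15.6%). SLC2A1, the glucose carrier of the barrier, rose by 0.94 in cortex from 80 to 145 d (adjusted p = 7.95e-07) and fell by 0.53 at birth (adjusted p = 0.0498), the step at which ABCB1 rose. SLC7A5, the large neutral amino acid carrier, changed by -0.66 in brainstem (adjusted p = 9.56e-05) and -0.67 in hypothalamus (adjusted p = 0.027) from 80 to 145 d. FCGRT, the neonatal Fc receptor, rose by 0.46 in cortex over the whole period (adjusted p = 0.0251) and fell by 0.32 in brainstem from 80 to 145 d (adjusted p = 0.036). SLC7A1, an arginine carrier, passed no age test. At birth ABCB1 was the only one of the 8 to rise, in cortex and in brainstem, and SLC2A1 in cortex and SLC16A1 in brainstem were the only ones to fall. Of all genes, 0.252% changed at that step in cortex and 4.98% in brainstem.

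Of 33 junction genes 10 were named, OCLN included, and 4 passed by age in cortex, 3 in brainstem, none in hippocampus and 2 in hypothalamus, where 46.3%, 41.3%, 3% and 15.6% of all genes passed. None of the 10 passed at birth in any region, where 0.252%, 4.98%, 0.00772% and 2.4% of all genes did. GJA4, an arterial gap junction protein, fell over the whole period by 0.59 in cortex, 0.56 in brainstem and 0.56 in hypothalamus (adjusted p = 0.000205, 0.000592 and 0.0406). TJP1, which encodes zonula occludens 1, had whole changes between -0.04 and 0.01 and passed in no region; it was named after its values were seen. GJA1, which astrocytes carry on their endfeet, rose by 1.97 in cortex from 80 to 145 d (adjusted p = 2.79e-10). TJP3 fell by 0.35 in cortex (adjusted p = 0.00112) and CAV1, a protein of endothelial caveolae, rose by 0.60 in brainstem (adjusted p = 0.00137) over the whole period.

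The endothelial list allowed ABCB1 to be set beside the vessels. Of 31 listed genes 10 were named and 8 to 10 were kept in a region. Their mean level per group lay between 7.31 and 7.58 in cortex, 7.47 and 7.63 in brainstem, 7.42 and 7.62 in hippocampus and 7.22 and 7.36 in hypothalamus. In cortex it was 7.43 at 145 d and 7.43 after birth, while ABCB1 went from 8.52 to 9.37. PECAM1 and KDR, which mark endothelium in general, changed at birth by 0.05 and -0.02 in cortex (adjusted p = 0.998 and 0.999). They changed by 0.27 and 0 in brainstem (adjusted p = 0.419 and 0.986) and by 0.06 and 0 in hypothalamus (adjusted p = 0.896 and 0.983). PECAM1 was named after its values were seen, and KDR was dim, with regional means of 6.95 to 7.04. TIE1, also of the list, read 0.05 in cortex (adjusted p = 0.99), 0.40 in brainstem (adjusted p = 0.197) and 0.58 in hypothalamus (adjusted p = 0.0701). Whether the amount of endothelium changed was not tested.

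Some endothelial genes did rise at birth with ABCB1. ICAM1, an adhesion molecule for leukocytes, rose by 0.65 in cortex (adjusted p = 0.0448), 0.65 in brainstem (adjusted p = 0.0419) and 0.57 in hypothalamus (adjusted p = 0.026). SELP, P-selectin, rose in brainstem (0.60, adjusted p = 0.0207) and hypothalamus (0.48, adjusted p = 0.00688) and read 0.55 in cortex (adjusted p = 0.062). EDN1, the vasoconstrictor endothelin 1, fell by 0.83 in cortex (adjusted p = 0.0174). SELP and ICAM1 are dim on these arrays, with group means of at most 7.13 and 7.56. Of all genes, 0.165% rose at birth in cortex, 3.72% in brainstem and 1.52% in hypothalamus. Of 12 genes of the microglial and myeloid list 2 were named. CD14 rose at birth by 0.71 in brainstem (adjusted p = 0.0207) and 0.73 in hypothalamus (adjusted p = 0.0459). It read 1.06 in cortex (adjusted p = 0.0658). ITGAM rose by 0.42 in brainstem (adjusted p = 0.0396). It read 0.20 in cortex (adjusted p = 0.677) and -0.25 in hypothalamus (adjusted p = 0.289). The mean of the list in cortex was 7.15 to 7.49 at 145 d and 7.30 to 8.27 after birth, and the part of these cells in the ABCB1 change was not tested.

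Before birth the astrocyte list moved with cortical ABCB1: all 7 named genes of 12 rose from 80 to 145 d, with a median of 1.86, where 41.9% of all genes changed. None of them passed at birth in cortex, where 0.252% of all genes did. GFAP, the astrocyte filament protein, rose at birth in brainstem (1.08, adjusted p = 0.0299) and hypothalamus (1.63, adjusted p = 0.00688), and read 0.77 in cortex (adjusted p = 0.0959). AQP4, the water channel of astrocyte endfeet, fell by 3.32 at birth in hypothalamus (adjusted p = 0.0492). It read -0.69 in cortex, -0.94 in brainstem and -1.4 in hippocampus and passed in none of these. AQP4 had 1 probe, and the local level was described for the members alone. In brainstem 5 of the 7 rose and 1 fell from 80 to 145 d, when ABCG2 rose and 38.1% of all genes changed. All 5 named proliferation genes of 10 fell from 80 to 145 d in cortex (median -0.96) and in brainstem (median -1.44). The choroid plexus list had 4 named genes of 14, of which 2 fell in brainstem and 1 rose and 1 fell in cortex from 80 to 145 d, while TTR passed by age in no region. Of 3 named erythroid genes of 11 none passed at birth in any region. In cortex, brainstem, hippocampus and hypothalamus 0.252%, 4.98%, 0.00772% and 2.4% of all genes did. From 80 to 145 d in brainstem HBB (1.34, adjusted p = 0.0349) and EPOR (0.56, adjusted p = 0.000395) rose and AHSP fell by 1.14 (adjusted p = 0.00727), beside the rise of ABCG2, and their part in it was not tested. Of 2 named neuronal genes of 15, 1 fell at birth in brainstem, where 4.98% of all genes changed. Of the pericyte list only CNN1 and COL1A2 were named, and CNN1, a smooth muscle protein, rose by 1.77 in cortex from 80 to 145 d (adjusted p = 2.54e-07). Whether these lists had a part in the changes of the pumps was not tested.

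**Figure D5:**
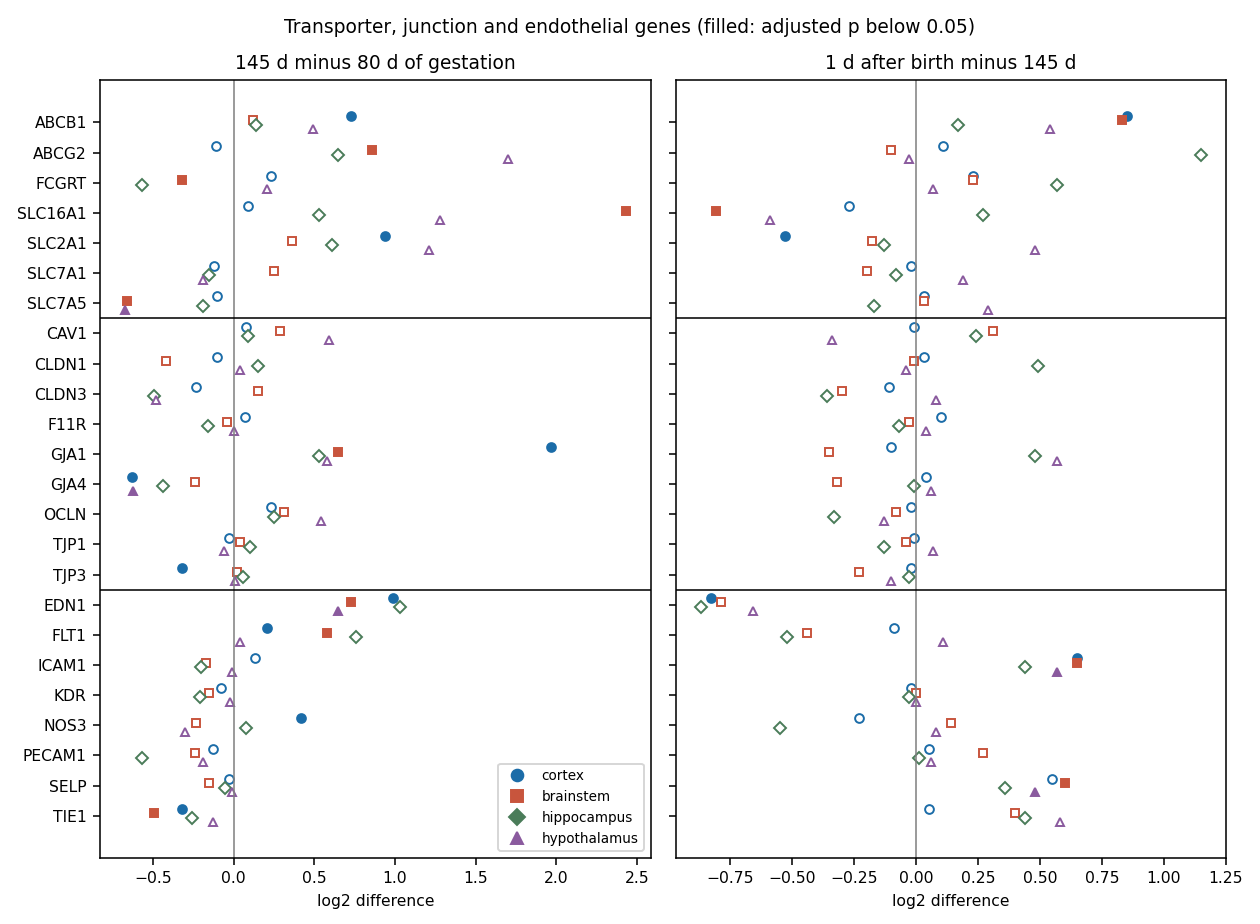
Log2 differences from 80 to 145 d (left) and from 145 d to 1 d after birth (right) for 7 transporter genes (top block), 9 junction genes (middle block) and the endothelial genes kept in all regions (bottom block); symbols are regions and filled symbols had an adjusted p below 0.05. At birth the filled transporter symbols are ABCB1 in cortex (0.85) and brainstem (0.83), SLC2A1 in cortex (-0.53) and SLC16A1 in brainstem (-0.81), and none of the junction genes shown is filled.

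Of 24 genes for signals to the vessel wall 16 were named, and 15 were kept in brainstem. There 10 passed from 80 to 145 d, where 38.1% of all genes did, with 6 that rose and 4 that fell. At birth 5 of the 15 fell in brainstem, where 4.98% of all genes changed. In cortex 5 passed from 80 to 145 d, against 41.9% of genes, and none passed at birth, where 0.252% of genes did. VEGFA, the main growth factor of endothelium, rose by 1.33 in brainstem from 80 to 145 d (adjusted p = 5.58e-05) and fell by 1.01 at birth (adjusted p = 0.0123). TGFB2, a growth factor of the TGF-beta family, fell by 0.99 in cortex (adjusted p = 0.000492) and by 1.48 in brainstem (adjusted p = 8.75e-06) over the whole period.

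The genes whose pattern over the 24 group means was most like that of ABCB1, among 885 named genes kept in all regions, were ATP6V1E1 (r = 0.832), LOC100101238 (0.801), LOC100037681 (0.783), SELP (0.78) and PSAP (0.777). With each region's mean removed they were PGFS (r = 0.909), PTGER4 (0.889) and ICAM1 (0.858). For ABCG2 they included SQSTM1 (r = 0.772), CTSL2, CAV1 and RHOB (0.744), and with the region means removed ESR1 (0.834), SCD5 and CTSL2, a pattern that includes the dim spots described above. For OCLN they were LOC100037701 (r = 0.789), GNG11, BMP4, SLC2A1 and CTSL2 (0.772), and with the region means removed IGFBP1 (0.668), NOX1 and DTNBP1. Among the members, ABCB1 and ABCG2 had r = 0.487, ABCB1 and OCLN 0.458 and ABCG2 and OCLN 0.295 with the region means removed. All these values describe groups measured on the same arrays and carry no test.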

How the data were processed

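Single-channel Agilent arrays of 95 sheep brain samples were used. The authors deposited scanner intensities (Feature Extraction 10.1.1.1 per the file headers) and a table of log2 values that they background-corrected and quantile-normalized with limma. Mean intensities were here corrected against the local background (normexp, offset 50) and quantile-normalized over all arrays in limma 3.58.1 (R 4.3.3). Control spots and spots marked as outliers were left out. Probes were kept at 1.1 times the 95th percentile of 77 negative controls on at least 4 arrays of a region, and probes of a gene were averaged. Of the probes 1656 had a gene symbol. Each region was fitted over the 6 ages with empirical Bayes moderation, and 1 fit over all arrays tested regions. P-values were adjusted by Benjamini-Hochberg over all genes and called below 0.05. The members and gene lists were chosen with earlier results of these data known. List genes were counted by direction, and up to 6 per list were eligible to be named, ranked by the regions passed and then by size of change; likeness was ranked as the 5 highest r, or 3 with region means removed. The number of arrays limits the precision. P-values of the age tests measure the spread between arrays labelled as replicates, among them unmarked twins. Those of the region tests also take arrays that can share an animal as independent. Whether replicate numbers mark the same animal was not settled. Deviations of same-numbered arrays of an age in different regions had a median r of 0.0569 (lowest -0.373), against -0.0473 for arrays of other numbers. Values of r over 0.1 were found for 56 of 141 same-numbered pairs and 91 of 423 others.

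The deposited log2 table held 11138 probes, and each of its 95 columns correlated best with its own array (r of at least 0.999, slope 0.974 to 0.98), so that its scale is log2. Local levels used the spots within 3 rows and columns. Scripts were tested on simulated data. Alternatives are listed in the closing section. The highest correlation between any 2 arrays was 0.9956. The values of some list genes and of 1 gene ranked for likeness are not reported here.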

Additional observations from a re-analysis of the deposited data

Results flagged for a closer look

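In 67 groups of 4 arrays, 3 had an array far from the others relative to the range of its group, and chance gives about 1 in 20 groups. ABCG2 was low on 1 cortex array at 80 d (12.04, with the others at 12.36 to 12.41), and on 1 hypothalamus array at 120 d (5.74, with the others at 11.79 to 12.64 and a local level of -1.39 around the probe). OCLN was high on 1 hypothalamus array at 100 d (8.03, with the others at 6.74 to 6.91).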

How the results depend on the processing

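Of 75 results, 60 kept their side of the threshold under every alternative and none reversed. Tried in turn were a smaller normexp offset (16), quantiles within regions, the scanner's processed signal, all probes unfiltered, the brightest probe, each probe alone, a block for the replicate number or for the slide, trended robust moderation, the dim area of newborn brainstem replicate 4 left out, the authors' table and each of the 95 arrays left out; leaving out uneven spots and subtracting the local level were chosen after seeing the data. The replicate block changed no call: under it the birth step of ABCB1 in cortex was again 0.85. In cortex, OCLN passed with the slide block (age F test 0.0222, fetal change 0.31, whole change 0.29) and on the processed signal (fetal 0.75, whole 0.76). In hypothalamus, ABCB1 passed with the brightest probe, which was probe 1 (fetal 0.66, birth 0.8), and missed with probe 2 alone (age F test 0.369, whole 0.58). The region F test of ABCG2 had an adjusted p of 0.0704 on the processed signal. The region-by-age F test of ABCB1 was 0.0283 without uneven spots, 0.0168 with the local level subtracted and 0.031 on the authors' table. It missed under the other settings, with an adjusted p of up to 0.77. With an array left out, the birth step of ABCB1 in cortex ran from 0.76 to 0.97, the age F test of OCLN in brainstem from 0.0421 to 0.337, the fetal change and birth step of ABCB1 in hypothalamus from 0.41 to 0.57 and from 0.44 to 0.68, and the region-by-age F test of ABCB1 from 0.0366 to 0.299. The causes were not tested. Counts of genes changed at birth ran across settings from 18 to 39 in cortex (32 as reported), 0 to 1 in hippocampus (1) and 250 to 695 in hypothalamus (315). With an array left out they ran from 2 to 176 in cortex (without newborn replicates 3 and 1), 186 to 1283 in brainstem (627), 1 to 23 in hippocampus and 55 to 467 in hypothalamus. Signal over background limits OCLN and ABCB1 probe 2 in hippocampus.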
